A study of Mesocricetus auratus with 6 samples.

Results

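The HOX genes encode homeodomain transcription factors and lie side by side in 4 clusters, HOXA to HOXD. They were read in uterus taken from pregnant Syrian golden hamsters (Mesocricetus auratus) at day 5. The series held 3 arrays of sites where an embryo implants (implantation sites) and 3 arrays of pieces from between such sites (interimplantation sites). Members were all probe sets whose platform annotation gave a single symbol of the form HOX, a cluster letter and a number. These were 31 of 22215 tested probe sets and 24 of 11963 genes, with 1 gene of HOXA (HOXA2), 9 of HOXB, 7 of HOXC and 7 of HOXD. All 24 symbols also occur among hamster genes that RefSeq annotates on BCM_Maur_2.0. A further 3 probe sets that carry a HOX symbol together with other symbols were left out, and the other HOXA genes were not analysed here.

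All animals were untreated, and the labels name no allele or agent in either group. The labels give neither the strain nor the age of the animals, do not say whether embryo tissue was left in the implantation site pieces, and do not tie an array to an animal, although the design text speaks of 3 animals. The p-values therefore measure the spread between these arrays. In bulk tissue, fewer cells of a type and less RNA per cell cannot be told apart.

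The order of HOX genes along a cluster follows the order in which they are used along the body axis. Genes of the same position number in different clusters (paralogues) descend from 1 ancestral gene, and their proteins bind DNA together with partner homeodomain proteins of the TALE class (PBX, MEIS and PKNOX). In the mouse, HOX genes of the 5′ ends of the clusters pattern the reproductive tract in the embryo. Some of them stay active in the adult uterus, where stroma needs them to respond to progesterone and to accept the embryo.

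Hamster RNA was read on an array designed for human transcripts, so a dim HOX probe set shows neither a missing transcript nor a missing difference. Values are log2 RMA values as the authors deposited them, and differences are implantation minus interimplantation site, with the standard error (SE) and the 95% interval of limma's fit over all probe sets. Correlations over all probe sets were 0.989 to 0.995 within groups and 0.985 to 0.992 between them. Of the 31 HOX probe sets, 19 were at or above the median brightness of all probe sets (4.19) and 3 lay under the first quartile (3.10). Actin signal from the 3′ end minus that from the 5′ end, a measure of RNA quality, averaged −2.08 ± 0.22 at implantation sites and −1.70 ± 0.15 at interimplantation sites (log2, SD, n = 3 arrays each; exact permutation p = 0.1, two-sided, the smallest that 3 against 3 arrays allow). The same measure for GAPDH averaged −0.21 ± 0.16 at implantation sites and 0.13 ± 0.17 at interimplantation sites (exact permutation p = 0.2). These control probe sets are human too, and actin was negative on all 6 arrays. The level of either measure is therefore not a direct reading of RNA integrity.

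HOXB6 was the one HOX gene that passed the test, and it was lower at implantation sites. It takes part in patterning of the trunk and is known from blood cell development. Its brighter probe set, which has the suffix _s_at, read 4.90, 5.48 and 5.22 on the 3 arrays of implantation sites, against 6.10, 6.50 and 6.15 on the 3 arrays of interimplantation sites. Every implantation array lay below every interimplantation array. The difference was −1.05 ± 0.14 (log2, SE; 95% interval −1.37 to −0.74), or 2.08-fold lower (limma adjusted p = 0.00424 over all probe sets). Among all 22215 probe sets, 2 had a larger fall.

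The dimmer HOXB6 probe set, which has the suffix _at, did not show this difference. It read 4.23, 4.20 and 4.25 at implantation sites, against 4.26, 4.24 and 4.25 at interimplantation sites, and the groups overlapped. The difference was −0.025 ± 0.069 (SE; 95% interval −0.18 to 0.13; limma adjusted p = 0.946), so the intervals of both probe sets of this gene do not meet. The annotation pairs the brighter set with the gene's RefSeq mRNA and the dimmer one with an expressed sequence tag. The suffix _s_at marks a set whose probes are shared by several transcripts. Which hamster transcripts each set reads was not tested. With the mean of both probe sets HOXB6 was at log2 −0.54 (limma adjusted p = 0.0201 over all genes). This mean includes the brighter set, so it gives no support apart from that set.

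Counting the family, 1 of 31 HOX probe sets was lower and 0 were higher in limma's test, while over all probe sets 0.356% were lower and 0.702% higher (1.06% in either direction). At an unadjusted p under 0.05, 3 HOX probe sets were lower and 1 higher, beside 5.23% and 5.27% of all probe sets. The groups did not overlap in 3 lower and 1 higher HOX probe sets, beside 8.3% and 7.72% of all. Negative differences numbered 16 of 31, and the median was −0.013, against −0.0099 over all probe sets. Read at the brightest probe set of each gene, 1 of 24 HOX genes was lower and 0 were higher, beside 0.46% and 0.777% of all genes.

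The 30 HOX probe sets that did not pass had narrow intervals. For all 30 the 95% interval, taken singly, lay within a 1.5-fold difference either way, and for 20 it lay within a 1.25-fold difference. For 27 of them the interval held 0. These intervals describe the signal of each human probe set, and not the level of the hamster transcript. The dimmer HOXB6 set was among the 30, at −0.025, while the brighter set of that gene was at −1.05. SDs between arrays of one group had a median of 0.10 at implantation sites and 0.11 at interimplantation sites. The widest spreads were those of the brighter HOXB6 set at implantation sites (0.29) and HOXD10 at interimplantation sites (0.28).

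**Figure D1:**
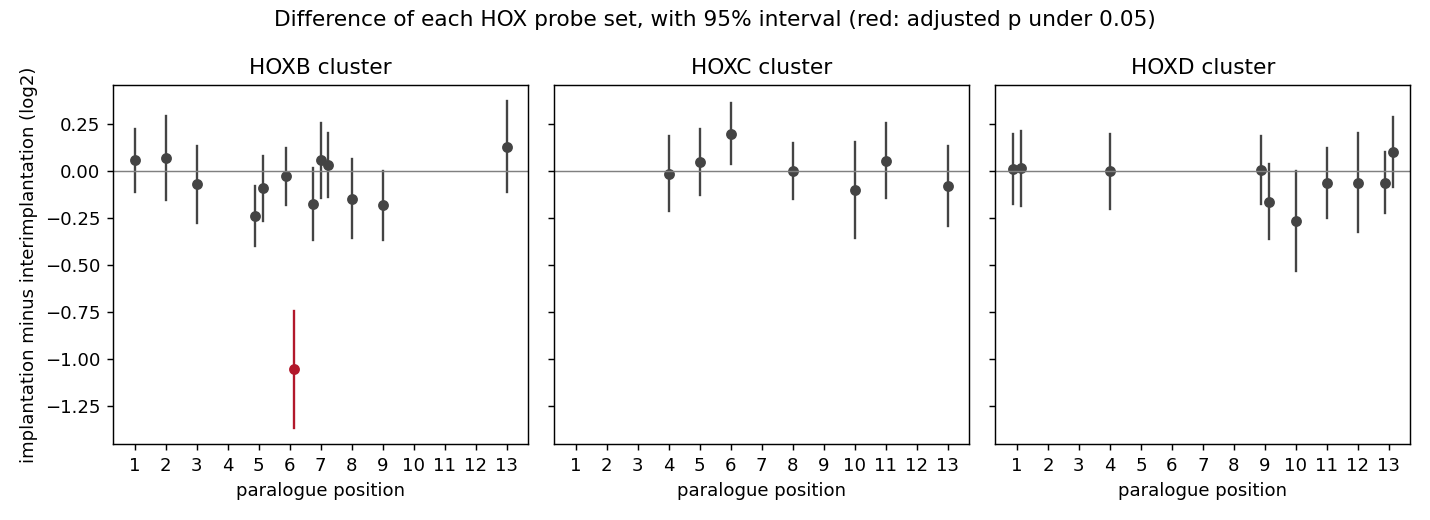
Difference between implantation and interimplantation sites (log2, vertical axis) of each HOXB, HOXC and HOXD probe set against its paralogue position (horizontal axis), with 95% intervals; probe sets of 1 gene stand side by side, and HOXA2 (0.074) is not drawn. The brighter HOXB6 set, in red, lies at −1.05, while the other 29 points drawn lie between −0.26 and 0.20.

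In the HOXB cluster, none of the 11 probe sets of other genes passed, and both neighbours of HOXB6 differed far less than the brighter HOXB6 set. The dimmer HOXB6 set (−0.025) differed less than any set of either neighbour. HOXB6 lies between HOXB7 and HOXB5 in the hamster annotation. HOXB5, which acts in gut nerve and lung development in the mouse, read 5.50, 5.53 and 5.57 at implantation sites, against 5.71, 5.77 and 5.84 at interimplantation sites, on its dimmer probe set. These groups did not overlap, and the difference was −0.24 ± 0.073 (SE; 95% interval −0.40 to −0.080; unadjusted p = 0.00697, limma adjusted p = 0.214). This set has the suffix _x_at, which marks a set with probes that can also bind other transcripts. The HOX members held 3 such sets, the others being the brightest set of HOXB7 and the HOXB9 set, and all 3 were at negative differences.

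The brighter HOXB5 probe set differed less. It read 6.22, 6.03 and 6.17 at implantation sites, against 6.21, 6.20 and 6.29 at interimplantation sites, with overlapping groups (log2 −0.091 ± 0.079 SE, limma adjusted p = 0.76). HOXB7, on the other side of HOXB6, had 3 probe sets that went both ways. Its brightest set averaged 4.07 ± 0.10 at implantation sites and 4.24 ± 0.12 at interimplantation sites (SD, n = 3; log2 −0.17, limma adjusted p = 0.524). Its other sets were at 0.034 and 0.058.

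Further toward the 5′ end, HOXB8 and HOXB9 were also at negative values. HOXB8, known in the mouse from microglia and grooming behaviour, averaged 4.13 ± 0.17 at implantation sites and 4.27 ± 0.10 at interimplantation sites (log2 −0.15 ± 0.096 SE, limma adjusted p = 0.66). HOXB9, which acts with its paralogues in the mouse mammary gland, read 3.26, 3.24 and 3.20 at implantation sites, against 3.27, 3.53 and 3.44 at interimplantation sites. The groups were separated by a narrow gap between the first implantation and the first interimplantation array. The difference was −0.18 ± 0.083 (SE; unadjusted p = 0.0498, limma adjusted p = 0.475).

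HOXB13, a gene of the prostate and the tail end of the body, was at 0.13 ± 0.11 (log2, SE), with 3.81 ± 0.19 at implantation sites and 3.68 ± 0.16 at interimplantation sites (SD, n = 3; limma adjusted p = 0.753). At the 3′ end of the cluster, HOXB1, HOXB2 and HOXB3, genes of the embryonic hindbrain, were at 0.058, 0.072 and −0.070, with limma adjusted p-values of 0.859, 0.871 and 0.862. HOXB4 was not analysed here. Over all 13 HOXB probe sets 8 were at negative differences (61.5%, against 53.6% of all probe sets), and the median was −0.070.

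**Figure D2:**
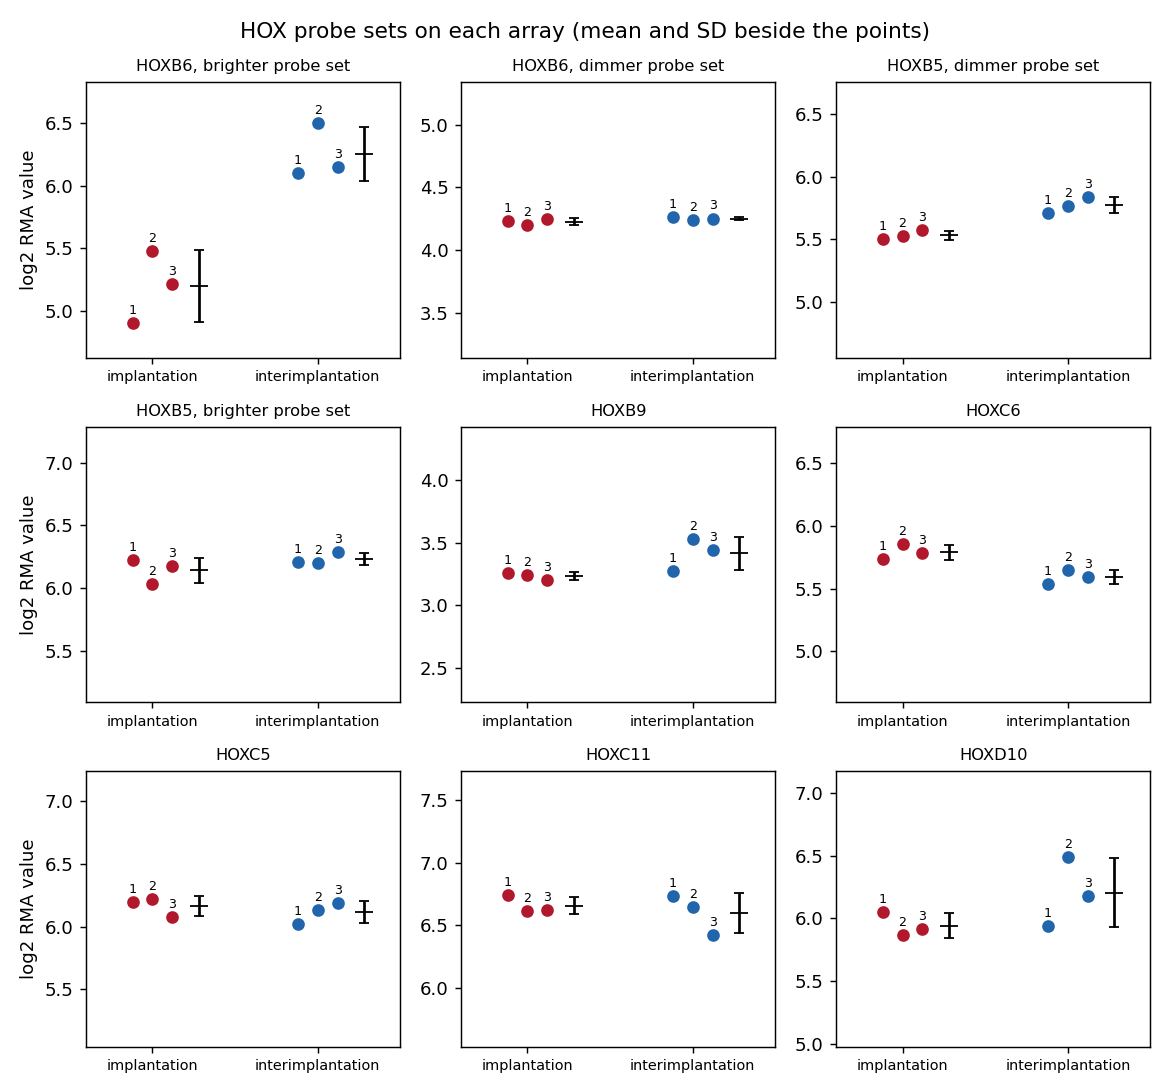
Log2 RMA value on each array (points numbered by replicate) of 9 HOX probe sets at implantation sites (red, left) and interimplantation sites (blue, right), with the mean and SD beside the points; every panel spans the same log2 range. The group means lie about 1 log2 unit apart in the brighter HOXB6 set alone among the 9 panels, while the dimmer HOXB6 set is level across the 6 arrays.

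In the HOXC cluster 0 of 7 genes passed in limma's test, 1 had an unadjusted p under 0.05, and the median difference was 0.0027. HOXC6, at the same paralogue position as HOXB6, had the highest difference of all HOX members. It read 5.73, 5.85 and 5.78 at implantation sites, against 5.54, 5.64 and 5.59 at interimplantation sites. The groups did not overlap, with a difference of 0.20 ± 0.074 (SE; 95% interval 0.037 to 0.36; unadjusted p = 0.0202, limma adjusted p = 0.332). Position 6 thus held both the lowest and the highest difference of the family, in HOXB and in HOXC.

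The neighbours of HOXC6 were level. HOXC5 read 6.20, 6.22 and 6.07 at implantation sites, against 6.02, 6.13 and 6.19 at interimplantation sites (log2 0.051 ± 0.080 SE, limma adjusted p = 0.886). HOXC8, which patterns ribs and vertebrae in the mouse, averaged 4.78 ± 0.013 at implantation sites and 4.77 ± 0.0091 at interimplantation sites (SD, n = 3; log2 0.0027 ± 0.069 SE). Of all HOX probe sets it had the smallest SD at interimplantation sites. HOXC4 was at −0.013 (limma adjusted p = 0.978).

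The posterior HOXC genes did not pass either. HOXC11, whose paralogue group acts in the kidney and limb, was the brightest HOX probe set and read 6.74, 6.61 and 6.62 at implantation sites, against 6.73, 6.65 and 6.43 at interimplantation sites. The groups overlapped (log2 0.057 ± 0.091 SE, limma adjusted p = 0.888). HOXC10, which is used in hindlimb motor neurons, averaged 3.77 ± 0.19 at implantation sites and 3.87 ± 0.20 at interimplantation sites (log2 −0.10, limma adjusted p = 0.837). HOXC13, a gene of hair and nail formation, averaged 3.63 ± 0.024 at implantation sites and 3.71 ± 0.20 at interimplantation sites (log2 −0.076, limma adjusted p = 0.853).

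In the HOXD cluster 0 of 10 probe sets passed in limma's test, 0 had an unadjusted p under 0.05, and the median was −0.029. HOXD10, a hindlimb gene like HOXC10, had the largest difference there. It read 6.05, 5.86 and 5.91 at implantation sites, against 5.94, 6.49 and 6.18 at interimplantation sites. The groups overlapped, since the first interimplantation array lay below the first implantation array, and the second interimplantation array was the highest. The difference was −0.26 ± 0.12 (SE; 95% interval −0.53 to 0.0043; unadjusted p = 0.0532, limma adjusted p = 0.486). Without the second interimplantation array it was −0.12 (limma adjusted p = 0.748).

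The other posterior HOXD genes lay close to 0. HOXD9 was at 0.0073 on its brighter probe set. Its dimmer set averaged 4.07 ± 0.14 at implantation sites and 4.23 ± 0.096 at interimplantation sites (SD, n = 3; log2 −0.16 ± 0.090 SE, limma adjusted p = 0.587). HOXD11 and HOXD12 were at −0.063 and −0.059. HOXD13, which forms digits and external genitalia, had its brighter probe set at 0.10 and its dimmer one at −0.061. The dimmer HOXD13 set had a mean of 2.36 over the 6 arrays, under the first quartile of all probe sets.

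HOXD1 was at 0.013 and 0.015 on its 2 probe sets, and HOXD4 at 0.0005. HOXA2, a gene of the hindbrain and branchial arches, averaged 2.59 ± 0.11 at implantation sites and 2.52 ± 0.17 at interimplantation sites (SD, n = 3; log2 0.074, limma adjusted p = 0.858). It lay under the first quartile, so little can be read from this probe set.

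Along the clusters, differences lay on both sides of 0 at early, middle and late positions. Of the 6 probe sets of positions 1 to 3, 5 were at positive differences, with a median of 0.037. Of the 13 of positions 4 to 8, 6 were positive and 7 negative, with a median of −0.013. Of the 12 of positions 9 to 13, 4 were positive and 8 negative, with a median of −0.062. Of the 6 HOX genes with several probe sets, HOXB5, HOXB6 and HOXD1 had all sets on one side of 0, and HOXB7, HOXD9 and HOXD13 did not.

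The TALE partners of HOX proteins did not pass, although both MEIS genes were at negative values. Of 9 listed genes 6 were measured, and 0 rose and 0 fell in limma's test, with 2 lower and 0 higher at an unadjusted p under 0.05, beside 5.22% and 5.68% of all genes. MEIS2 read 6.24, 6.48 and 6.30 at implantation sites, against 6.80, 6.77 and 6.52 at interimplantation sites (log2 −0.36 ± 0.097 SE, limma adjusted p = 0.125). MEIS1 read 5.13, 5.25 and 5.17 at implantation sites, against 5.34, 6.01 and 5.40 at interimplantation sites (log2 −0.40 ± 0.15 SE, limma adjusted p = 0.298). The groups of each MEIS gene did not overlap, and the second interimplantation array was far above the others in MEIS1. Without it MEIS1 was at −0.18 (limma adjusted p = 0.536). PKNOX2, PBX3, PKNOX1 and PBX2 were at 0.15, 0.096, −0.057 and −0.0005. Without _x_at and _s_at probe sets, PKNOX1 and PBX2 were read by other sets at −0.20 and −0.30 and did not pass (limma adjusted p = 0.352 and 0.345). PBX3 was at 0.022 without the first and 0.20 without the second interimplantation array.

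Among genes that set HOX cluster activity, KDM6A fell. It encodes a demethylase that removes the Polycomb mark H3K27me3, and read 5.64, 5.80 and 5.74 at implantation sites, against 6.36, 6.53 and 6.49 at interimplantation sites (log2 −0.73 ± 0.081 SE, limma adjusted p = 0.00093). The groups of KDM6A did not overlap. With the mean of its 3 probe sets it was at −0.30 and did not pass (limma adjusted p = 0.126). Among 34 measured regulators from chromatin complexes and retinoid metabolism it was the 1 gene to fall, and 0 rose, beside 0.46% and 0.777% of all genes. At an unadjusted p under 0.05, 6 were lower and 3 higher, beside 5.22% and 5.68% of all genes, and the median was 0.042, against −0.0069 over all genes.

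CYP26A1, which breaks down retinoic acid, an inducer of HOX genes, read 7.38, 7.74 and 7.92 at implantation sites, against 8.07, 8.63 and 8.27 at interimplantation sites. The groups did not overlap, but the difference did not pass (log2 −0.65 ± 0.15 SE, limma adjusted p = 0.0683). HOXA10 and HOXA11 themselves were not analysed here. Of 14 genes reported to respond to HOXA10 or HOXA11 in the uterus, 0 passed in limma's test (median 0.028). Of these 14, 0 had an unadjusted p under 0.05. The smallest p-values there were those of CDKN1C, a cell cycle inhibitor of the decidua (log2 −0.17, limma adjusted p = 0.489), and WNT4, a signal needed for decidualization in the mouse (log2 0.21, limma adjusted p = 0.61). CDKN1C was at −0.10 without the first interimplantation array, and at 0.015 when the probe set with the largest spread stood for each gene. WNT4 was at 0.11 without the first implantation array and at 0.36 without the second interimplantation array, and neither gene passed in these settings.

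Homeobox genes outside the clusters did not pass, with 0 of 60 in limma's test and a median of −0.011. At an unadjusted p under 0.05, 3 of them were lower (5%) and 0 higher, beside 5.22% and 5.68% of all genes. The lowest were DLX5 and DLX6, which lie next to each other in mammals. DLX5 read 4.79, 5.03 and 4.79 at implantation sites, against 5.20, 5.38 and 5.26 at interimplantation sites (log2 −0.41 ± 0.090 SE, limma adjusted p = 0.0515). DLX6 read 4.62, 4.64 and 4.72 at implantation sites, against 4.93, 5.07 and 5.00 at interimplantation sites (log2 −0.34 ± 0.077 SE, limma adjusted p = 0.0579). Both pairs of groups were apart, just short of the threshold, and DLX5 passed in 6 of 17 other settings and DLX6 in 3 of 18. Of 13 genes that flank the human HOX clusters 0 passed, and 1 was lower at an unadjusted p under 0.05 (7.69%, beside 5.22% of all genes). The smallest p-values were those of SKAP1 and NFE2L1, which flank HOXB (log2 −0.21 and −0.18, limma adjusted p = 0.383 and 0.532; median of the list −0.065).

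**Figure D3:**
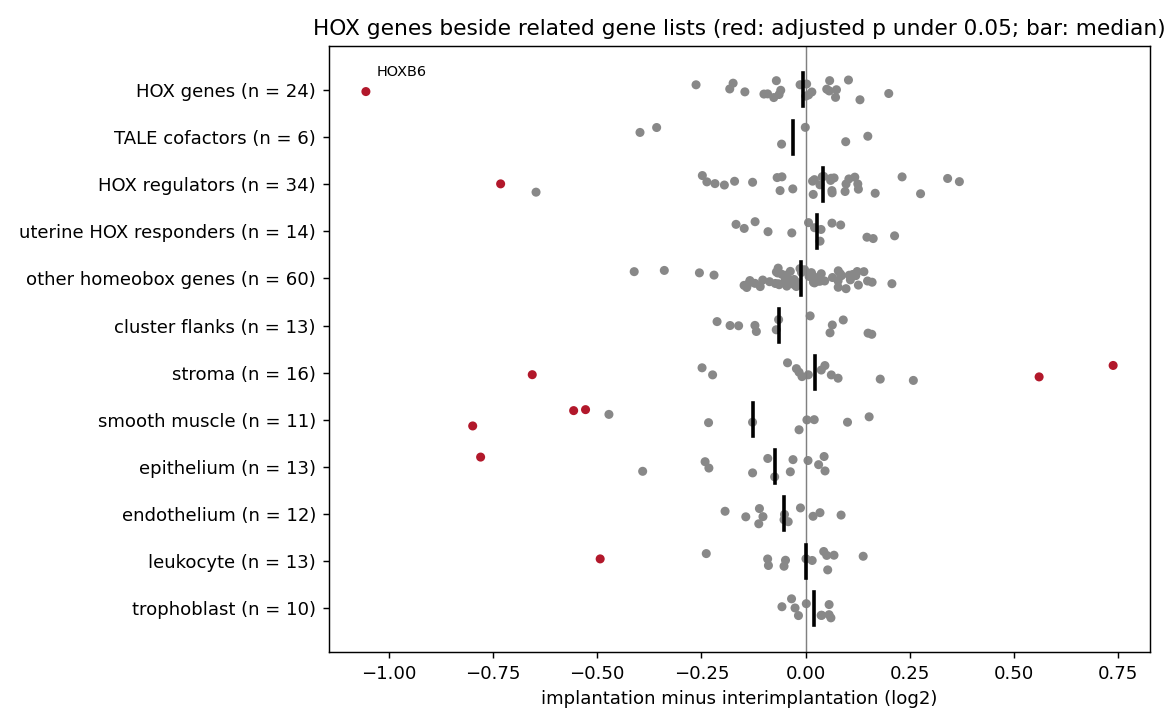
Difference between implantation and interimplantation sites (log2, horizontal axis) for 24 HOX genes and 11 lists of related or cell type genes, each gene at its brightest probe set; bars are medians and red points passed limma's test. HOXB6 lies at −1.05, lower than any gene of the other lists, the lowest of which is ACTG2 at −0.80.

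Markers of cell types in the uterus were read beside HOXB6. Smooth muscle markers summed to 447 to 456 at implantation sites and 489 to 598 at interimplantation sites (linear RMA units, 11 of 12 genes measured). ACTG2, TAGLN and MYLK, which encode contractile proteins and their kinase, fell in limma's test (log2 −0.80, −0.56 and −0.53), but each missed the threshold when any 1 array other than the first interimplantation array was left out (adjusted p up to 0.126, 0.149 and 0.192). Of the 11 smooth muscle genes 3 thus fell and 0 rose, beside 0.46% and 0.777% of all genes. At an unadjusted p under 0.05, 5 were lower (45.5%) and 0 higher, beside 5.22% and 5.68% of all genes. TPM2 and CNN1 were the others of these 5, at −0.47 and −0.23 (limma adjusted p = 0.207 and 0.231). Signs in the list were mixed, with 7 genes at negative and 4 at positive differences (median −0.13). ACTA2, the smooth muscle actin, was at 0.15 with groups that did not overlap (limma adjusted p = 0.508), and MYH11, the smooth muscle myosin heavy chain, was at 0.0034 (limma adjusted p = 0.993). Epithelium markers summed to 328 to 362 at implantation sites and 382 to 403 at interimplantation sites (13 of 14 measured). SOX17, a transcription factor, was the 1 gene of that list to fall in limma's test (log2 −0.78). None rose, beside 0.46% lower and 0.777% higher of all genes. At an unadjusted p under 0.05, 4 were lower and 0 higher, beside 5.22% and 5.68% of all genes. KRT19, KRT8 and CLDN3 were the others of these 4, at −0.39, −0.24 and −0.23 (limma adjusted p = 0.127, 0.259 and 0.408). The epithelium list leaned to negative differences, with 9 genes negative and 4 positive (median −0.074, highest 0.047). CDH1 and EPCAM were at −0.030 and −0.074, and KRT7 was at 0.047. The smooth muscle and epithelium sums were apart between the sites in the same direction as HOXB6, as was the leukocyte sum given below. A sum in linear units weighs bright genes most, and ACTG2 was the brightest smooth muscle marker.

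Stroma markers summed to 3376 to 3561 at implantation sites and 2888 to 3409 at interimplantation sites (16 of 17 measured), and these ranges overlapped. The stroma list was mixed, with 9 genes at positive and 7 at negative differences (median 0.022). COL1A1 was its brightest gene and so weighs most in the linear sum. WT1, a transcription factor of decidua, and COL1A1, a collagen, rose (log2 0.74 and 0.56), and PDGFRA, a growth factor receptor, fell (log2 −0.66). Of the 16 stroma genes 2 thus rose and 1 fell in limma's test, beside 0.777% and 0.46% of all genes. At an unadjusted p under 0.05, 4 were higher and 2 lower, beside 5.68% and 5.22% of all genes. WT1 missed the threshold without the third interimplantation array (adjusted p = 0.0769). Averaged over all probe sets of each gene, WT1, COL1A1 and PDGFRA were at 0.36, 0.28 and −0.26 and did not pass (limma adjusted p = 0.112, 0.0677 and 0.117). After repeated quantile normalization COL1A1 was at 0.28 and did not pass (limma adjusted p = 0.131). Sums for leukocyte markers were 322 to 333 at implantation sites and 336 to 339 at interimplantation sites (13 of 14 measured). SPI1, a myeloid factor, fell (log2 −0.49), although it missed the threshold when any 1 array other than the first implantation array was left out (adjusted p up to 0.133). It was the 1 leukocyte gene of 13 to fall in limma's test, and 0 rose. At an unadjusted p under 0.05, 2 leukocyte genes were lower and 0 higher, beside 5.22% and 5.68% of all genes. Sums for endothelium markers, 294 to 307 at implantation sites and 302 to 320 at interimplantation sites (12 of 13 measured), overlapped, and 0 of these genes passed in limma's test or had an unadjusted p under 0.05 (KDR at −0.19 and ENG at −0.14 had the smallest p). Trophoblast and embryo markers summed to 324 to 343 at implantation sites and 326 to 349 at interimplantation sites (10 of 12 measured), with 0 genes past limma's test or at an unadjusted p under 0.05 (TFAP2C at 0.061 and DPPA4 at 0.057 had the smallest p). No marker can be called at 0, since RMA values have no zero. The part of these cell types, and of RNA quality, in the HOXB6 difference was not tested.

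The HOXB6 difference kept its direction and passed in each of the 15 other settings that could give it. Values ran from −1.19 to −0.91 and limma adjusted p-values from 0.000735 to 0.0244. The smallest difference was the one without the first implantation array, which had the lowest HOXB6 value of all 6, and the largest the one without the second implantation array. Without _x_at and _s_at probe sets this set drops out, and HOXB6 is then read by its dimmer set alone.

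**Figure D4:**
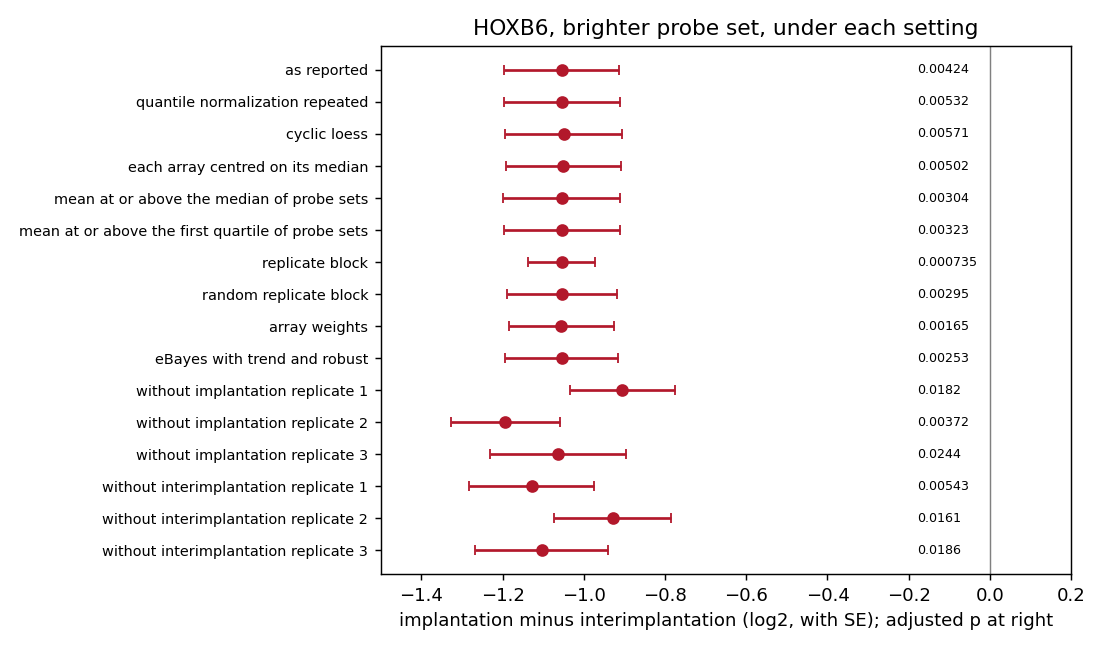
Difference of the brighter HOXB6 probe set between implantation and interimplantation sites (log2, horizontal axis, bars are SE) as reported and in 15 other settings (vertical axis), with limma adjusted p-values at the right. All 16 points lie between −1.19 and −0.91.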

How the data were processed

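Total RNA of hamster uterus was labelled and hybridised to 6 Affymetrix arrays designed on human transcripts. The authors deposited log2 values, 1 for each probe set on each array, which come from RMA and Partek 6.6 according to the submitters' processing notes. No source states the log's base, and the values, from 1.6 to 12.1, were read as log2. RMA brings all arrays to one distribution, so a change of total RNA is not visible. Batches could not be tested, since scan dates were not used here.

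Of 22283 probe sets, 68 controls were left out and 22215 tested. The annotation given here named 1 gene for 19065, several for 1043 and none for 2107. The comparison used limma 3.58.1 under R 4.3.3 (lmFit, then eBayes, two-sided, without covariates), with Benjamini-Hochberg adjustment over all probe sets, or over 11963 genes each read at its probe set with the highest mean, at a threshold of 0.05. On simulated data for the probe set comparison (22215 probe sets) it recovered 33.3% of 1.25-fold, 95.7% of 1.5-fold and 100% of 2-fold changes for probe sets no dimmer than the median.

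The members and gene lists were chosen with earlier results of these data known. Named HOX probe sets were those with an unadjusted p under 0.05, all sets of a gene that passed and the 4 brightest others. All further members were named with their difference after their values were seen. From the other lists, genes that passed (up to 4) or the 2 with the smallest p were named, and all TALE genes. CYP26A1 and the markers TPM2, CNN1, ACTA2, MYH11, KRT19, KRT8, CLDN3, CDH1, EPCAM and KRT7 were named after their values were seen. Alternatives were 3 normalizations, 2 filters on brightness, leaving out _x_at and _s_at probe sets, fixed and random replicate blocks, array weights, a trended robust eBayes, other choices of probe set per gene and leaving out each array. The number of arrays limits the precision.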

Additional observations from a re-analysis of the deposited data

How the results depend on the processing

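HOX probe sets and HOX genes gave 1 lower and 0 higher in the alternatives run, leaving out single arrays included, except without _x_at and _s_at probe sets, where 19 of the 31 HOX probe sets remain and both counts of lower members are 0 because the HOXB6 set that passed is not in the table. That setting also gave 37 higher and 20 lower probe sets overall (156 and 79 as reported), 38 higher and 21 lower genes (93 and 55) and, over the gene lists, 0 higher and 2 lower (2 and 7), with fewer features tested. Array weights gave 133 lower probe sets and 96 lower genes, averaging the probe sets of each gene 26 lower genes and 0 higher and 2 lower list genes, and repeated quantile normalization 1 higher list gene; the cause was not tested. Leaving out single arrays gave 83 to 140 higher and 33 to 90 lower probe sets, 50 to 89 higher and 25 to 65 lower genes, and 1 to 2 higher and 3 to 7 lower list genes. Deviations of arrays with the same replicate number correlated weakly over all probe sets (0.054, −0.002 and 0.07). Still, 2 of the 3 implantation arrays were best matched by the interimplantation array of their own number. Whether arrays of one number form a pair was not tested. In the fit with a replicate block HOXB6 was at −1.05 (limma adjusted p = 0.000735), and its SE was 0.083, against 0.14 as reported. The HOX counts were unchanged in this fit, DLX5 passed (limma adjusted p = 0.0322) and ACTG2 did not (0.0677). The median HOX difference ran from −0.059 to 0.0046 and changed sign in 3 of 16 settings. Dim probe sets and the number of arrays limit what can be seen.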
